A study of Mus musculus with 9 samples.

Results

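The 10 genes described here act on procollagen after its export, and their levels were followed across MEFs (mouse embryonic fibroblasts) of 3 genotypes. They are the procollagen C-proteinases Bmp1 and Tll1, the C-proteinase enhancers Pcolce and Pcolce2, the N-proteinases Adamts3 and Adamts14, and the lysyl oxidases Lox, Loxl1, Loxl3 and Loxl4. They were chosen by name, with earlier results of these data known, and all 10 of them were found among the 19938 genes measured. RNA levels were read on Affymetrix Gene ST arrays, 3 for each genotype. The groups are WT, DM (a double mutant in ERO1α and ERO1β, the thiol oxidases of the endoplasmic reticulum, ER) and TM (the double mutant that also lacks PRDX4, an ER peroxiredoxin). All 9 arrays are labelled as T antigen-transformed MEFs on a C57B/L6 background. The labels call the reference genotype wild-type, whereas the study's methods describe control MEFs that carry the Ero1β mutation on both copies and the Ero1α mutation on 1 copy, so the labels and methods do not settle what WT carries. The DM and TM cells carry both Ero1 mutations on both copies, and Prdx4, which is X-linked, is mutated in TM. Whether each genotype is represented by 1 culture or several is not given, so the p-values rest on how far arrays of a genotype differ, and that spread may be technical.

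Fibrillar procollagens leave the ER with a propeptide at each end, and these must be cut off before fibrils assemble. ADAMTS metalloproteinases remove the N-propeptide, and BMP1 and the Tolloid-like proteinases remove the C-propeptide, helped by the PCOLCE glycoproteins, which bind the propeptide and speed its cleavage. Lysyl oxidases are copper-dependent enzymes that then convert lysines and hydroxylysines of collagen and elastin to aldehydes, from which the covalent crosslinks form. BMP1 also releases the propeptide of LOX.

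Upstream sequence is shown for genes whose levels differed between the genotypes in different ways, so that their promoters can be compared. The 250 bases before the start of transcription were taken from a promoter set based on RefSeq (GRCm38.p6), in which 6 of the 10 genes had an entry. Of these, 4 are printed 5′ to 3′ along the gene: Tll1 (chr8:64206009-64206258, minus strand), Pcolce2 (chr9:95637378-95637627, plus strand), Adamts3 (chr5:89883335-89883584, minus strand) and Adamts14 (chr10:61273420-61273669, minus strand). The build behind the array design is not stated. Capitals mark each match, on either strand, to the GC box GGGCGG. They also mark the CCAAT box, searched as those 5 letters. The TATA box TATAAA was searched likewise. So was the AP-1 motif TGANTCA. Matches that touch or overlap, as in Adamts14, run together, and the motifs searched do not overlap one another.
Tll1: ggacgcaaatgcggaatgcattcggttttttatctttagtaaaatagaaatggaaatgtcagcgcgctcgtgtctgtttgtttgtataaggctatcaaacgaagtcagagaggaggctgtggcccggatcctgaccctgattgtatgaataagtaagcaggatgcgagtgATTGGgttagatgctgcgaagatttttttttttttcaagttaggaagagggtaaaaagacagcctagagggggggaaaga
Pcolce2: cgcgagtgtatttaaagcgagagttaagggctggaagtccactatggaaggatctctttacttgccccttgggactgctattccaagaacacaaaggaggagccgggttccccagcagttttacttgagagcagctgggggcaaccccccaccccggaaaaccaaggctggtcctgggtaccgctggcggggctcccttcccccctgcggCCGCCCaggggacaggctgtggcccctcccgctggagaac
Adamts3: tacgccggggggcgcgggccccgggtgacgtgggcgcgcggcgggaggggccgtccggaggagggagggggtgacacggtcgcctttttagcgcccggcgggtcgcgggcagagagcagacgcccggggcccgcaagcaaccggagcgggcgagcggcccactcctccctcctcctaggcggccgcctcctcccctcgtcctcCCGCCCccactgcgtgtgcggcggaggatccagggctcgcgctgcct
Adamts14: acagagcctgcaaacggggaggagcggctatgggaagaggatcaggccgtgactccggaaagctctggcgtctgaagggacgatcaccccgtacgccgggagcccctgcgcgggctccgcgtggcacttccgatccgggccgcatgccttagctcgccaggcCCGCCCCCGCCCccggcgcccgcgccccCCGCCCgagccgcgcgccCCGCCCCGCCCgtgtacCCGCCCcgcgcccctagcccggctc
A GC box lay in this window of Pcolce, Pcolce2, Adamts3, Adamts14 and Loxl4 and not of Tll1, and such a match is present in 32.7% of the 32851 promoters of the same length. Adamts14 had 6 matches, Loxl4 had 3 and the other 3 genes had 1 each. The Tll1 window had a CCAAT box, ending 76 bases before the start, as 33.8% of all promoters do, and it was the least rich in G and C of the 6, at 43.2% against a median of 52.4% over all promoters. The Adamts3 and Adamts14 windows held 35 CpG dinucleotides each, against 10 in Tll1 and Pcolce2 and a median of 6. A TATA box (12.4% of all promoters) or an AP-1 match (6.75%) was found in none of the 6 windows. The short SMAD box CAGAC, on either strand, was present in Tll1, Adamts3, Adamts14 and Loxl4, and in 42.2% of all promoters. These matches describe letters and say nothing of factor binding.

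The deposited values are RMA levels on the log2 scale. RMA corrects the background, scales the arrays to each other and merges the probes of a probe set into 1 value, and probe set levels of different genes cannot be compared with each other. Calls required an adjusted p (Benjamini-Hochberg, over all genes) under 0.05 and a change over 1.5-fold, and every adjusted p given here comes from 1 limma fit of all 9 arrays. Array medians were 7.62 to 7.72 and all 10 genes lay above the median of all probe sets on average. Ero1a was 11.86 ± 0.020 in WT, 9.46 ± 0.052 in DM and 9.06 ± 0.076 in TM (mean ± SD, n = 3 arrays, as for all means here), and Prdx4 fell from 10.56 ± 0.11 in WT to 6.30 ± 0.41 in TM, as the labels require. Ero1b, which was at 7.65 ± 0.11 in WT, 7.702 ± 0.023 in DM and 7.94 ± 0.081 in TM, was not called. The DM arrays stood apart in Xist, an RNA made from the silenced X, at 12.56 ± 0.068 against 5.70 ± 0.053 in WT and 5.72 ± 0.099 in TM, and the Y-linked genes Kdm5d, Uty and Eif2s3y were lower in DM by 1.47 to 2.08 on the log2 scale than in the other groups. Sex and genotype cannot be told apart for DM.

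**Figure D1:**
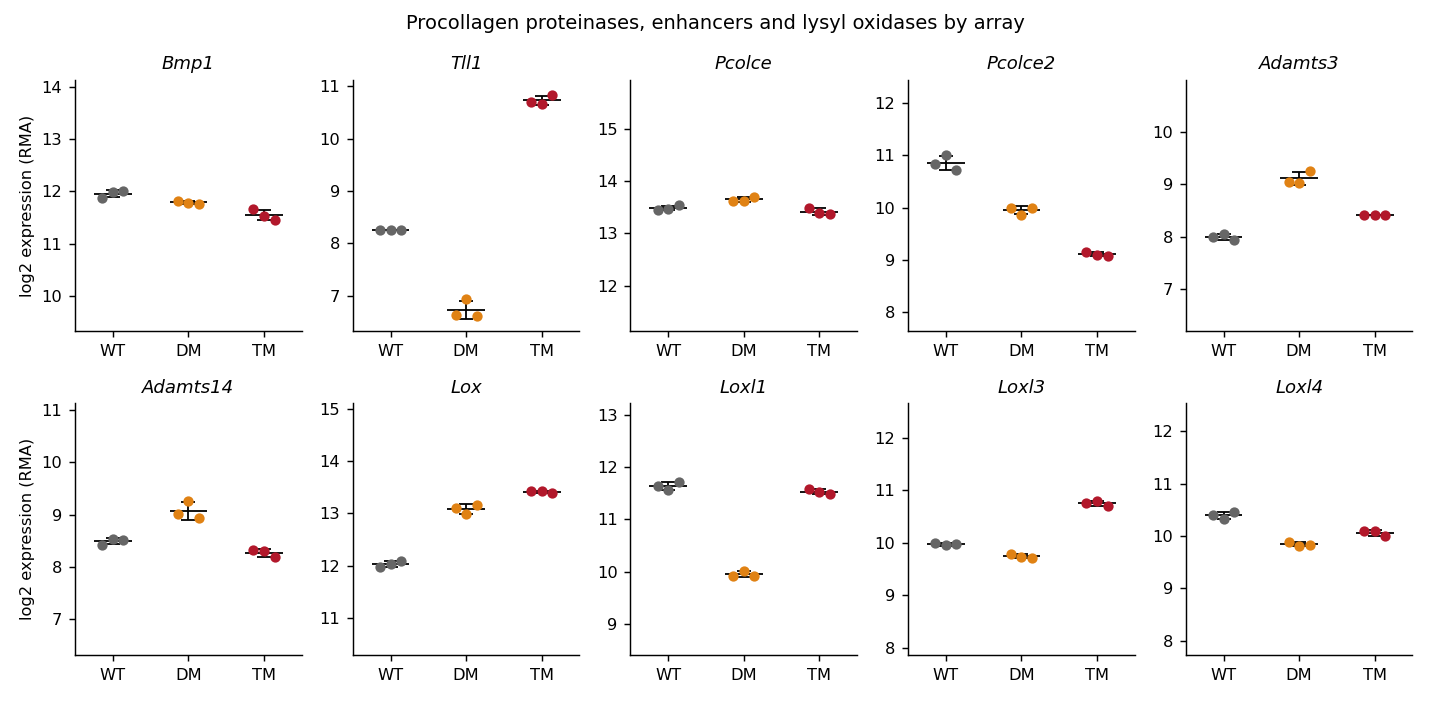
Log2 RMA expression of the 10 genes in WT (grey), DM (orange) and TM (red) MEFs. Each point is an array, with the group mean as a bar and its SD as whiskers (n = 3), and every panel spans the same range of log2 units around its own centre. In genotype means, Tll1 runs from 6.73 in DM to 10.73 in TM, Pcolce2 steps down from WT to TM, and Bmp1 and Pcolce stay within 0.41 log2 units.

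Genes of each enzyme group changed, some up and some down. In DM 2 of the 10 (Lox and Adamts3) were higher and 3 (Loxl1, Tll1 and Pcolce2) lower than in WT, where 5.28% of all genes were called higher, 5.67% lower and 10.9% either way. In TM 3 (Lox, Loxl3 and Tll1) were higher and 1 (Pcolce2) lower than in WT, against 5.59% and 3.56% of all genes, or 9.15% either way. Between the mutants, 3 (Loxl1, Loxl3 and Tll1) were higher and 3 (Pcolce2, Adamts3 and Adamts14) lower in TM than in DM, against 4.68% and 3.61%, or 8.29% either way. Without the fold limit, 9 of the 10 passed in DM, 7 in TM and all 10 between the mutants, where 36.8%, 31.8% and 31.8% of all genes passed. The arrays of 10 of the genes did not overlap between DM and WT, of 8 between TM and WT and of 10 between the mutants, as in 46.4%, 43.4% and 40.1% of all genes. Their median log2 difference was -0.20 in DM, -0.090 in TM and -0.0060 between the mutants, beside 0.025, -0.029 and -0.046 over all genes. The comparisons of DM and TM with WT share the WT arrays.

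**Figure D2:**
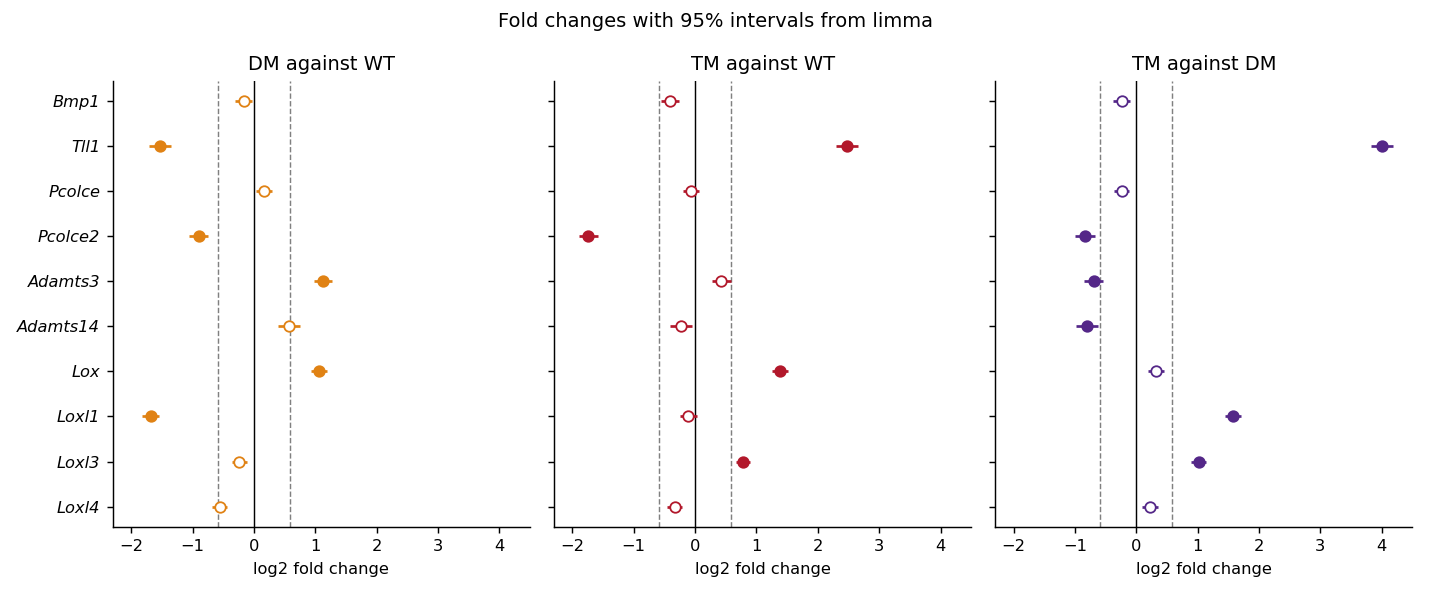
Log2 fold changes of the 10 genes in the 3 comparisons, with 95% intervals from limma. Filled points passed an adjusted p under 0.05 and 1.5-fold (dashed lines), open points did not. Tll1 lies at -1.52, 2.48 and 4.001 in the 3 panels, and Bmp1 and Pcolce lie inside the dashed lines in each.

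Tll1, which encodes the C-proteinase Tolloid-like 1, showed the widest range of the 10 genes, and its level fell in DM MEFs and rose in TM MEFs. The log2 level was 8.25, 8.26 and 8.25 in the WT arrays, 6.64, 6.93 and 6.62 in DM, and 10.70, 10.67 and 10.83 in TM. The DM arrays were thus the lowest, the WT arrays intermediate and the TM arrays the highest, without overlap, and the DM arrays lay below the median of each array. Against WT the log2 fold change was -1.52 in DM (SE 0.082, adjusted p = 1.42e-08) and 2.48 in TM (SE 0.082, adjusted p = 1.75e-10). Between the mutants it was 4.001 (95% interval 3.82 to 4.18, adjusted p = 3.5e-12), or 16.01-fold higher in TM. Of all genes, 0.341% were called in opposite directions against WT in DM and TM. The WT arrays of Tll1 lay within an SD of 0.0042. RMA values can coincide between arrays, and the 3 arrays of a genotype hold 1 identical value in 0.928% to 1.85% of genes.

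Bmp1, the gene of the prototype C-proteinase, varied far less. Its WT arrays read 11.87, 11.99 and 12.01, the DM arrays 11.82, 11.79 and 11.77, and the TM arrays 11.66, 11.54 and 11.46. The groups did not overlap, in the order WT, DM, TM, but no difference reached 1.5-fold. Against WT the change was -0.17 in DM (95% interval -0.31 to -0.025, adjusted p = 0.0653) and -0.41 in TM (-0.55 to -0.27, adjusted p = 0.000352), and -0.24 in TM against DM (adjusted p = 0.0138). Its neighbours DM and WT in that order did not differ past the test.

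Of the C-proteinase enhancers, Pcolce2 fell in both mutants and Pcolce was called in no comparison. Pcolce2, which encodes the enhancer PCPE-2, read 10.84, 10.996 and 10.72 in WT, 9.99, 9.86 and 10.001 in DM, and 9.16, 9.10 and 9.09 in TM. The groups were separate and stepped down from WT through DM to TM. On the log2 scale the change from WT was -0.90 in DM (SE 0.073, adjusted p = 7.66e-07) and -1.74 in TM (SE 0.073, adjusted p = 1.61e-09), the latter 3.33-fold, and TM was also below DM, at -0.84 (SE 0.073, adjusted p = 1.96e-06).

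Pcolce, which encodes PCPE-1, read 13.45, 13.46 and 13.54 in WT, 13.62, 13.63 and 13.70 in DM, and 13.48, 13.39 and 13.36 in TM. The DM arrays were the highest and those of WT and TM overlapped. Its change from WT was 0.17 in DM (95% interval 0.040 to 0.29, adjusted p = 0.0408) and -0.071 in TM (95% interval -0.20 to 0.056, adjusted p = 0.427), so a change over 1.5-fold lay outside both intervals. With median centring the log2 fold change in DM was 0.095. In DM the adjusted p was not under 0.05 with median centring or with the replicate block. The same held without WT replicate 1 or 2, any 1 DM array, or TM replicate 2.

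Adamts3 was higher in DM than in both other genotypes, and Adamts14 was higher in DM than in TM. Adamts3, which encodes an N-proteinase that also activates the lymphatic growth factor VEGF-C, read 7.99, 8.05 and 7.93 in WT, 9.05, 9.03 and 9.26 in DM, and 8.42 in each TM array. The order was WT, TM, DM with no overlap. The log2 fold change was 1.12 in DM (SE 0.069, adjusted p = 4.91e-08) and 0.43 in TM (SE 0.069, adjusted p = 0.000349), under the 1.5-fold limit in TM, and TM was lower than DM at -0.70 (SE 0.069, adjusted p = 5.85e-06). The TM arrays lay within an SD of 0.00096, closer than the other groups.

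Adamts14, a paralog with N-proteinase activity, read 8.43, 8.53 and 8.52 in WT, 9.02, 9.26 and 8.93 in DM, and 8.32, 8.31 and 8.18 in TM. The DM arrays were the highest and the TM arrays the lowest. The log2 fold change in DM was 0.58 (95% interval 0.40 to 0.76, adjusted p = 0.000107), or 1.49-fold, so that it passed the test of p and missed the fold limit by little. It passed both without WT replicate 2 (0.60), WT replicate 3 (0.59), DM replicate 1 (0.60) or DM replicate 3 (0.65), and with cyclic loess (0.59). In TM it was -0.22 (95% interval -0.40 to -0.046, adjusted p = 0.0556), and TM was called lower than DM at -0.80 (SE 0.082, adjusted p = 7.9e-06).

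Adamts3 is covered by 16 probe sets with mean levels of 5.47 to 8.51, of which 5 lay above the median of all probe sets, and the brightest is the one described so far. Fitted singly among all probe sets, an alternative chosen after seeing the data, all 16 were called higher in DM than in WT, with log2 fold changes of 0.65 to 1.80 and a median of 1.07. The arrays of DM and WT overlapped in none of the 16. Against WT all 16 were also positive in TM, at 0.12 to 0.83 with a median of 0.38, but only 2 were called. Against DM all 16 were negative in TM, at -1.04 to -0.42, and 11 were called. In 2 of the probe sets the 3 TM arrays hold 1 identical value. The probe sets read 1 transcript population of the same RNA and are not independent.

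**Figure D3:**
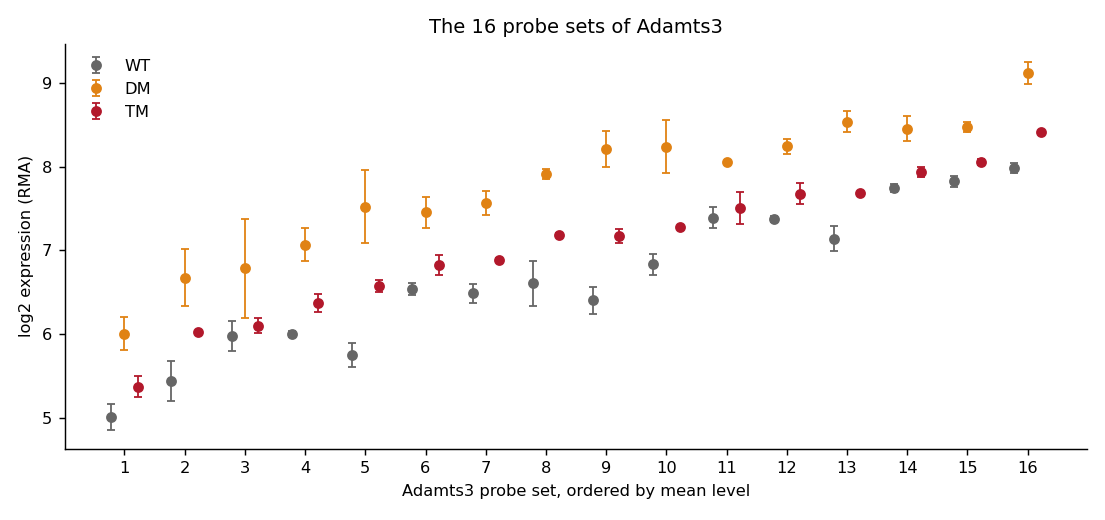
Log2 RMA expression of the 16 Adamts3 probe sets, ordered by mean level, in WT (grey), DM (orange) and TM (red) MEFs, as means with SDs (n = 3 arrays). The DM mean is the highest and the WT mean the lowest at every probe set, with TM between them.

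The lysyl oxidases did not move as 1 group. Lox rose in both mutants, Loxl1 fell in DM and was not called in TM against WT, Loxl3 rose in TM, and Loxl4 was below WT in both mutants by less than 1.5-fold. Lox, the founding member, read 11.97, 12.03 and 12.08 in WT, 13.11, 12.98 and 13.16 in DM, and 13.42, 13.42 and 13.38 in TM. All mutant arrays were above all WT arrays. On the log2 scale Lox rose by 1.06 in DM (SE 0.062, adjusted p = 3.14e-08) and by 1.38 in TM (SE 0.062, adjusted p = 2.67e-09), that is 2.08-fold and 2.60-fold. TM was above DM by 0.32 (95% interval 0.19 to 0.46, adjusted p = 0.00142), under the fold limit.

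Loxl1, whose product crosslinks elastin and is guided to elastic fibres by fibulin-5, read 11.64, 11.56 and 11.71 in WT, 9.92, 10.02 and 9.91 in DM, and 11.57, 11.53 and 11.48 in TM. DM stood well below, and the WT and TM arrays overlapped. Against WT the log2 difference was -1.68 in DM (SE 0.061, adjusted p = 3.56e-10), a fall of 3.21-fold, and -0.11 in TM (95% interval -0.24 to 0.024, adjusted p = 0.219). TM was higher than DM by 1.57 (SE 0.061, adjusted p = 8.45e-10).

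Loxl3, a lysyl oxidase with scavenger receptor domains, read 10.004, 9.95 and 9.97 in WT, 9.78, 9.72 and 9.71 in DM, and 10.76, 10.80 and 10.71 in TM. TM was the highest group and DM the lowest, with no overlap. Against WT the log2 difference was 0.78 in TM (SE 0.054, adjusted p = 1.94e-07) and -0.23 in DM (95% interval -0.35 to -0.12, adjusted p = 0.00427), and TM was above DM by 1.02 (SE 0.054, adjusted p = 1.82e-08).

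Loxl4, another member with scavenger receptor domains, read 10.41, 10.33 and 10.46 in WT, 9.88, 9.80 and 9.83 in DM, and 10.09, 10.09 and 9.998 in TM. The order was DM, TM, WT without overlap. The log2 fold change was -0.56 in DM (95% interval -0.69 to -0.43, adjusted p = 7.81e-06), or 1.47-fold, and -0.34 in TM (95% interval -0.46 to -0.21, adjusted p = 0.000663). In DM the fold limit was passed with median centring (-0.63), with the mean of its probe sets (-0.60) and without WT replicate 2 (-0.59). Its dimmer probe set, taken singly, was called lower in DM at -0.65 (adjusted p = 0.000967).

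Among other enzymes of these families, Tll2 and the meprins Mep1a and Mep1b, which can also cut procollagen, were measured, all with mean levels below the median of all probe sets. Of these 3 genes, limma called 0 in any comparison, and 0 passed an unadjusted p under 0.05 with limma or with the methods' t-test. Tll2 was 7.11 in WT, 7.04 in DM and 6.98 in TM, so of the Tolloid-like genes only Tll1 was called here. Adamts2 and Loxl2, from the N-proteinase and lysyl oxidase families, were also listed but were not among the genes measured. Neither family is therefore covered in full.

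Among the substrates, of 11 fibrillar procollagen chain genes, 1 was called higher and 1 lower in DM, where 10.9% of all genes were called either way, and 1 was lower in TM, where 9.15% were called. Col1a2, the α2 chain of type I procollagen, was 11.75 in WT, 10.04 in DM and 11.87 in TM, a log2 fold change of -1.71 in DM (SE 0.070, adjusted p = 1.1e-09) and 0.12 in TM (adjusted p = 0.259). TM was above DM by 1.83 (adjusted p = 7.44e-10). Col1a1, the partner chain, which was named after its values were seen, was 0.53 in DM (adjusted p = 0.000105), under the fold limit, and 0.032 in TM. Col11a1, a minor fibrillar chain, rose by 1.02 in DM (SE 0.053, adjusted p = 1.06e-08), and Col5a3 fell by 0.61 in TM (SE 0.068, adjusted p = 1.63e-05). The median of the 11 genes was 0.026 in DM and 0.032 in TM. The Col5a3 call in TM was lost with cyclic loess (-0.58), without WT replicate 2 (-0.58) and without TM replicate 1 (-0.56). Col1a1 passed the fold limit in DM with quantile normalization (0.62) and cyclic loess (0.63), and Col5a3, at -0.52 in DM, passed it with median centring (-0.59).

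Of 16 other substrates and partners of BMP1 and the Tolloid proteinases, 6 rose in DM and 5 in TM, where 5.28% and 5.59% of all genes were called higher. With median centring 4 rose in DM. Sfrp2, a secreted Frizzled-related protein that binds BMP1, rose by 3.43 in DM and 5.62 in TM (adjusted p = 1.11e-12 and 3.32e-14). Postn, which encodes periostin, a matrix protein that binds BMP1, rose by 2.20 and 3.20 (adjusted p = 3.59e-10 and 1.64e-11), and Dcn, which encodes the small proteoglycan decorin, by 1.14 and 1.83 (adjusted p = 1.22e-08 and 1.74e-10). All 3 were also higher in TM than in DM. In WT the mean levels of Sfrp2 (6.90) and Postn (6.71) lay below the lowest array median. The DM arrays of Dcn hold the same value (SD 0.0). The median log2 fold change of the list was 0.35 in DM and 0.21 in TM.

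Of 7 elastic fibre genes and other partners of lysyl oxidases, 2 rose in DM, and in TM 4 rose and 1 fell. Of all genes, 5.28% were higher in DM, and 5.59% were higher and 3.56% lower in TM. With cyclic loess 5 rose in TM. Eln, the elastin gene, was not called in DM (0.092) or TM (0.16). Fbln5, which encodes fibulin-5, was at -0.42 in DM, under the fold limit (adjusted p = 0.000104), and rose by 0.91 in TM (adjusted p = 9.33e-08). The difference of 1.33 between the mutants was called (adjusted p = 2.97e-09), as was that of Loxl1. Fbn2, a fibrillin gene, rose by 1.20 in TM. Fmod, which encodes fibromodulin, a collagen-binding proteoglycan, rose by 1.81 in DM and 1.08 in TM. Its WT mean of 7.20 lay below the lowest array median. Fmod and Thbs1, counted here as other partners, were both among the genes called higher in TM.

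Copper reaches lysyl oxidases in the secretory pathway through the pump ATP7A. Atp7a was 9.61 in WT, 10.31 in DM and 9.46 in TM, and it rose by 0.70 in DM (SE 0.073, adjusted p = 7.34e-06) and was lower in TM than in DM at -0.85 (adjusted p = 1.61e-06). Slc31a2, a copper transporter gene, rose by 0.85 in DM and 0.59 in TM, the latter call lost with median centring (0.54), without WT replicate 1 (0.57) and without TM replicate 3 (0.52). These were 2 and 1 of 4 copper genes, beside 5.28% of all genes called higher in DM and 5.59% in TM. Among 4 proprotein convertases, which activate the proteinases by removing their prodomains, Pcsk5 rose by 0.88 in DM (adjusted p = 1.87e-07) and Furin fell by 0.65 in TM (adjusted p = 4.6e-05), a call lost with cyclic loess (-0.58) and without TM replicate 3 (-0.55). Furin was at -0.55 in DM and was called there with median centring (-0.62). Beside these 2 convertase calls, 5.28% of all genes were called higher in DM and 3.56% lower in TM.

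**Figure D4:**
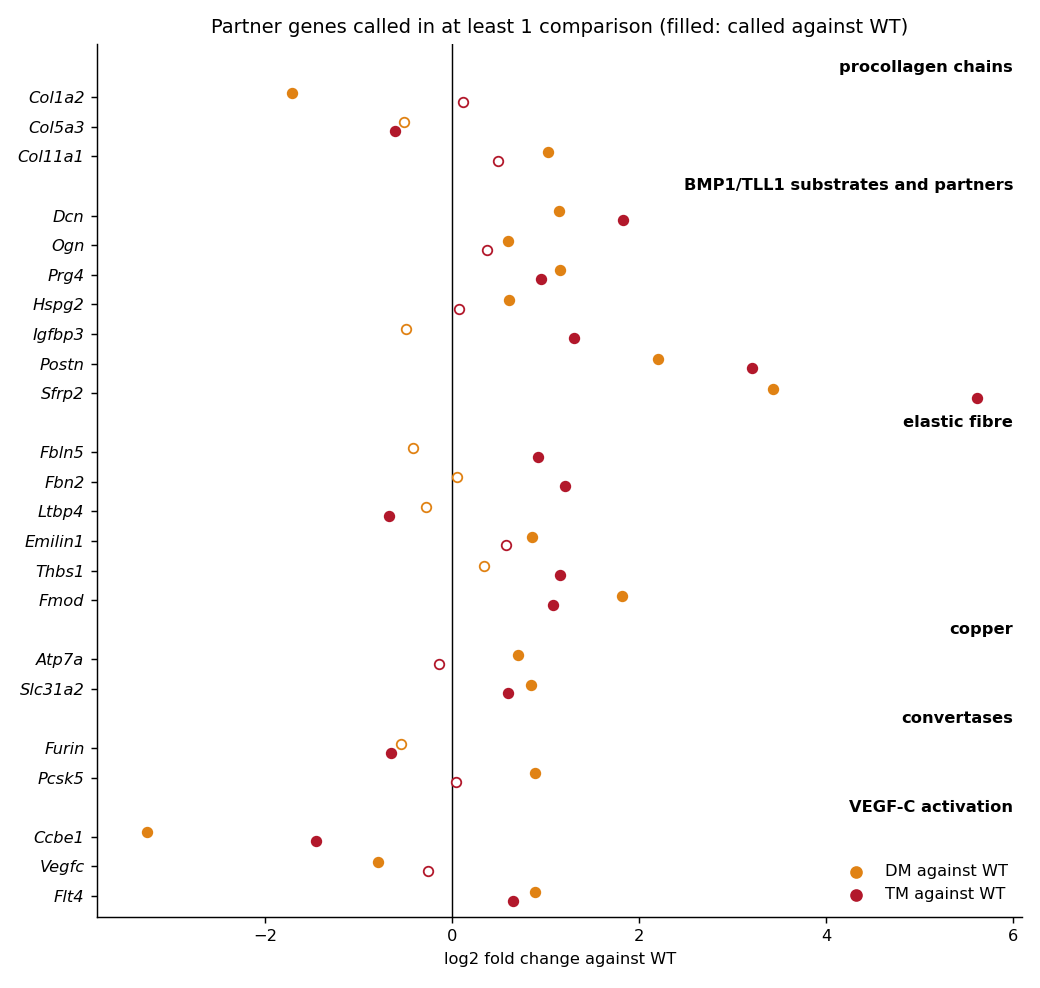
Log2 fold changes against WT in DM (orange) and TM (red) MEFs for the partner genes called in at least 1 of the 3 comparisons, grouped by list. Filled points were called against WT and open points were not. Sfrp2, Postn and Dcn lie to the right in both mutants, and Col1a2 and Ccbe1 lie furthest to the left in DM.

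Markers of the cells moved with the genotypes as well. Of 8 fibroblast markers, 1 was higher and 3 were lower in DM, and 2 were higher and 1 lower in TM. Averaged over the 9 arrays, all 8 lay above the median of all probe sets. The Thy1 mean was 7.67 in WT and 7.42 in DM, not above the highest array median. Over all genes, 10.9% were called either way in DM and 9.15% in TM, which holds as the background for each marker list. The mean log2 level of the fibroblast markers was 11.50 to 11.55 in the WT arrays, 10.997 to 11.02 in DM and 11.82 to 11.92 in TM. Their median log2 fold change was -0.14 in DM and 0.074 in TM. In TM Thy1 (2.93) and Pdgfrb (1.23) rose and S100a4 (-1.46) fell. In DM Pdgfrb (1.18) rose, and S100a4 (-2.28), Pdgfra (-1.915) and Col1a2 (-1.71) fell. Col1a1, Col1a2 and Fn1 are on both this list and the substrate lists. Of 6 mesothelial markers, 4 rose and 1 fell in DM and 2 fell in TM, and the mean log2 level of the 6 was 8.27 to 8.33 in WT, 11.07 to 11.20 in DM and 7.27 to 7.40 in TM. Of 6 smooth muscle and pericyte markers, 2 rose in TM, where their mean was 9.39 to 9.43 against 8.41 to 8.48 in WT and 8.35 to 8.44 in DM. The smooth muscle markers Myh11 and Des and the pericyte marker Rgs5 lay below the median of all probe sets. Of 5 cartilage and bone markers, Sox9 alone was called against WT, lower in DM at -1.65, and Acan, Sp7 and Ibsp lay below that median. Of 4 adipocyte markers, 3 of them below that median, Pparg rose by 2.19 in DM and 1.42 in TM, and the mean of the list was 6.87 to 6.89 in WT, 7.37 to 7.42 in DM and 7.28 to 7.43 in TM. Fabp4 was higher in TM than in DM by 0.72. Of 6 epithelial markers, Krt18, Cdh1 and Krt14 rose in DM, where the mean of the list was 7.94 to 8.06 against 7.20 to 7.26 in WT and 7.12 to 7.24 in TM. The rise was largest in Krt18 (2.69), against 1.14 in Cdh1 and 0.84 in Krt14. Krt8 (0.064) and Krt5 (0.17) were not called in DM, and Epcam went the other way (-0.34), under the fold limit. The 4 endothelial markers and 4 of 5 leukocyte markers lay below that median. The part of these markers in the differences of the 10 genes was not tested, and in bulk RNA fewer cells of a type and less RNA per cell cannot be told apart.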

How the data were processed

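Expression was measured in 9 samples, 3 arrays for each of WT, DM and TM MEFs. The authors hybridised RNA to Affymetrix Gene ST arrays, read the images with GCOS and ran RMA and PLIER in GeneSpring GX. The deposited table holds log2 RMA levels of 35556 probe sets, made with a version of RMA not given in the sources. PLIER values were not analysed here. Normalization between arrays by the authors could have removed small shifts in total signal. The platform annotation names 1 gene for 21789 probe sets, several for 1621 and lists no gene for 12146. Only those with 1 gene were used (21698 matched RefSeq GRCm38.p6 by gene identifier), and for each of 19938 genes the probe set brightest over the 9 arrays was kept.

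A linear model of all arrays was fitted with limma 3.58.1 under R 4.3.3, with empirical Bayes variances and the contrasts DM against WT, TM against WT and TM against DM, after a test on simulated data. The 10 genes and all lists were chosen with earlier results of these data known, and lists are described by counts and medians. The rule for named genes took the 10 genes, the mutated genes, up to 3 called genes with the largest changes in each list, and the 5 genes nearest to each of the 2 genes of widest range. Tll2, Mep1a, Mep1b, Col1a1, Eln, Thbs1, Pdgfrb, the sex-linked genes and the uncalled marker genes fall outside it and were named after their values were seen. Other scalings, thresholds, tests, probe set choices and a replicate block were tried.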

Additional observations from a re-analysis of the deposited data

Results flagged for a closer look

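Tll1 was the single one of the 10 genes with calls in opposite directions against WT. It was singled out because its level fell in DM and rose in TM, and the difference between the mutants was itself called, at 4.001 on the log2 scale (adjusted p = 3.5e-12 from limma), with all 3 TM arrays above and all 3 DM arrays below the WT arrays.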

How the results depend on the processing

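No fold change of the 10 genes turned its sign under any of the alternatives. With an adjusted p under 0.05 and no fold limit, DM had 4 of the 10 genes higher and 5 lower. TM had 4 higher and 3 lower, and 5 were higher and 5 lower in TM than in DM. Over all genes this gave 3398 higher and 3942 lower in DM (against 1052 and 1131), 2757 and 3581 in TM (against 1115 and 709), and 3070 and 3280 in TM against DM (against 933 and 720). Over 2-fold, 527 and 358 genes were called in DM, 558 and 223 in TM, and 408 and 268 in TM against DM, where 0 of the 10 genes were then lower, as Pcolce2, Adamts3 and Adamts14 lie between 1.5-fold and 2-fold. Pcolce2 in DM and Loxl3 in TM were also lost at 2-fold. With 1 array left out, the 10 genes gave 2 to 3 higher and 3 to 4 lower in DM, and the same counts as with all arrays in TM and between the mutants. The sample titles do not say whether arrays with the same replicate number were handled together. Their deviations correlated at -0.239 to 0.168, which does not settle it. With the replicate number as a block, DM had 2 of the 10 genes higher and 3 lower, TM had 3 higher and 1 lower, and there were 3 higher and 3 lower between the mutants, as without it. The scalings, the methods' t-test, the fit of 6 arrays, the filter on dim probe sets and the other variance model kept each of these counts within 1.5 times. The fits of single probe sets and the list counts under other settings were added after seeing the data. The number of arrays limits the precision.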

Other observations

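Genes whose levels ran closest to the widest-ranging members were found by the Euclidean distance between log2 values centred on each gene's mean over the 9 arrays, which fall into 3 genotypes. Nearest to Tll1 were Myl9, a myosin light chain gene (distance 0.637), Actg2, a smooth muscle actin gene (1.07), Alkal1 (1.12), Rgs16, a regulator of G protein signalling (1.20), and Hoxa5 (1.36). Myl9 had log2 fold changes of -1.61 in DM and 2.19 in TM, and Actg2 of -0.89 and 3.09. Nearest to Pcolce2 were Ctnnal1 (distance 0.331), the kinase gene Ptk2b (0.41), the gap junction gene Gja1 (0.416), Ermp1 (0.427) and Akr1e1 (0.428), whose log2 fold changes were -0.70 to -1.16 in DM and -1.52 to -1.76 in TM.

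ADAMTS3 also activates VEGF-C, with the secreted protein CCBE1. Ccbe1 was 10.72 in WT, 7.45 in DM and 9.25 in TM, with log2 fold changes of -3.26 in DM (adjusted p = 8.67e-12 from limma) and -1.46 in TM (adjusted p = 2.21e-08), both called. Its 3 TM arrays hold 1 identical value. Vegfc fell by 0.79 in DM (adjusted p = 2.28e-06) and was at -0.26 in TM, under the fold limit, whereas Flt4, which encodes the VEGF-C receptor, rose by 0.88 in DM and 0.65 in TM, the latter call lost without WT replicate 1 (0.55). Adamts3 rose in DM, where Ccbe1 and Vegfc fell.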
